A study of Mus musculus with 12 samples.

Results

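Kdm6b and 9 further histone demethylases of the Jumonji C (JmjC) family, Kdm6a, Kdm2a, Kdm2b, Kdm3a, Kdm3b, Kdm4a, Kdm4b, Kdm5a, and Kdm5b, were taken by name from the count table of an RNA-Seq study of mouse bone marrow. All 10 of the 10 genes were among the 55291 genes of the table, and all 10 passed the filter on low counts that left 15825 genes to test. LK cells, the lineage-negative cKit+ fraction that holds hematopoietic stem and progenitor cells, were isolated with magnetic beads from C57BL/6 mice at 12 months of age. One library was made per mouse, with 3 mice of each of 4 genotypes. WT mice were the controls. Kdm6bΔ/+ mice carried Mx1Cre and 1 floxed Kdm6b allele (Kdm6b fl/+), which was deleted by repeated injection of pI:pC, a double-stranded RNA that switches on the interferon-inducible Mx1 promoter. Asxl1Y588XTg mice carried a transgene for truncated Asxl1, and Asxl1Y588XTg Kdm6bΔ/+ mice, labelled double mutation, carried both changes. Mx1Cre acts in any cell that responds to interferon and is not restricted to blood cells. Whether the WT and Asxl1Y588XTg mice of these libraries carried Mx1Cre or received pI:pC, which promoter drives the Asxl1 transgene, which Kdm6b exons are floxed, and the sex of the mice are not given in the sources used here.

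JmjC demethylases are oxygenases that use ferrous iron and 2-oxoglutarate to remove methyl groups from lysines of histone tails. KDM6B (JMJD3) and KDM6A (UTX) remove di- and trimethylation from lysine 27 of histone H3, the mark that Polycomb repressive complex 2 (PRC2) writes at silenced genes. KDM6B is known as a gene induced by inflammatory signals, whereas KDM6A is encoded on the X chromosome, escapes X inactivation, and has a homolog on the Y chromosome, Uty. The other 8 genes encode pairs of enzymes that act on lysines 36, 9, and 4 of histone H3. The questions that follow from the genotypes are by how much the transcript of the targeted gene was reduced in each background, and whether the transcripts of the other demethylases differed with it.

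Reads of 50 bases cannot always be assigned to 1 of 2 related genes, so the transcripts were first compared with those of all other annotated genes (GENCODE vM21, mm10). Of the 8565 different 50-base words in the transcripts of Kdm6a (X:18162575-18279936, plus strand), 12 (0.140%) also occurred in Uty (Y:1096861-1245759, minus strand), and none occurred in Kdm6b (11:69398508-69413675, minus strand). These 12 words come from the longest stretch that the coding sequences of Kdm6a and Uty have in common, 61 bases in exon 13 of each. It is shown here because the count of Kdm6a turned out to separate the libraries by their Y-linked transcripts, and it is the only place in the coding sequences where a 50-base read can match both genes exactly. The shared run is in capitals, with 20 flanking bases on each side in lower case. The windows differ at 2 of 101 bases, 1 at each edge of the run.
Kdm6a, chrX:18246980-18247080, plus strand: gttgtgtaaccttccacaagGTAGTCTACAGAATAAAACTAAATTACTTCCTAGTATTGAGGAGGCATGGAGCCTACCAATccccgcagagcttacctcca
Uty, chrY:1169152-1169252, minus strand: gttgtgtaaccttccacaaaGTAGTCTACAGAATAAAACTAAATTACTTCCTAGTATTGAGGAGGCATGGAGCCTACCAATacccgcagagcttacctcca
The longest run shared by the coding sequences of Kdm6a and Kdm6b was 14 bases, and none of the pairs Kdm2a and Kdm2b, Kdm3a and Kdm3b, Kdm4a and Kdm4b, or Kdm5a and Kdm5b had a 50-base word in common. Other genes shared more words with some members. In Kdm3b 24.1% of the words were shared, mainly with the opposite-strand transcript Gm26538, and in Kdm2b 12.5%. Of these 1381 words of Kdm2b, 578 were shared with the overlapping opposite-strand gene Rnf34 and the rest with other genes. In Kdm6b the share was 2.19%, all of it with the antisense transcript Kdm6bos, and in Kdm5a it was 1.88%, mainly with Ccdc77. The other members were at 0.247% or less. Whether the authors counted reads by strand is not given in the sources used here, so reads in these overlaps may be assigned to either gene or to none. Gm26538 is not in the count table under that name, so whether any reads were assigned to it cannot be told.

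The libraries held between 14451522 and 23482563 counted reads. Kit, which encodes the receptor used for selection, was found in every library at 328 to 441 CPM, the count relative to the scaled library total. Cd3e, a T cell gene, was at 0.973 CPM or less. Of the 9 markers of neutrophils and monocytes, summed levels were between 50337 and 74619 CPM in WT and between 48632 and 57010 in Asxl1Y588XTg mice. They were between 58573 and 63905 in Kdm6bΔ/+ and between 52442 and 64083 in Asxl1Y588XTg Kdm6bΔ/+ mice. The 7 progenitor markers summed to 1239 to 1373 in WT and 1213 to 1347 in Kdm6bΔ/+ mice. Their range was 1319 to 1375 in Asxl1Y588XTg and 1167 to 1224 in Asxl1Y588XTg Kdm6bΔ/+ mice, so in that background the deletion group lay below its control group. Over all 4 genotypes the 6 erythroid markers summed to between 125 and 283 CPM. The part of these differences in the results below was not tested. Libraries also differed in Y-linked transcripts. In CPM of the unscaled library total, the summed level of Ddx3y, Eif2s3y, Uty, and Kdm5d was at least 157 in 6 libraries. It was at most 0.890 in the other 6, and Xist showed the opposite order. None of the 3 WT libraries, 2 of 3 Kdm6bΔ/+, 1 of 3 Asxl1Y588XTg, and all 3 Asxl1Y588XTg Kdm6bΔ/+ libraries had Y-linked transcripts, so this difference moves with the deletion and with the transgene. Kdm6a values are therefore given below with and without a term for it.

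All 10 demethylases were expressed in every library. On the scale of CPM per kb of exon, the highest mean level in WT LK cells was that of Kdm4a (18.4 ± 1.35, SD, n = 3), followed by Kdm6b (17.4 ± 2.06), Kdm3b (15.8 ± 1.28), Kdm6a (14.5 ± 0.718), and Kdm2a (13.8 ± 0.231). Each of these overlapped the next in the order between mice. Kdm5a (11.7 ± 1.07) lay below Kdm2a without overlap. Kdm3a (7.84 ± 0.746) and Kdm5b (7.46 ± 0.2405) lay below Kdm5a without overlap and overlapped each other, and the lowest levels were those of Kdm2b (6.44 ± 0.821) and Kdm4b (6.24 ± 0.591), which also overlapped each other. Kdm6b and Kdm6a, the H3K27 demethylases, were thus among the more abundant of the 10 listed transcripts in WT LK cells. Their levels per kb were close there, but no WT library had Y-linked transcripts. In the libraries of other genotypes that had them, Kdm6a was at 8.37 to 9.05 and Kdm6b at 11.01 to 18.8. Genes of the family outside the list were not ranked here.

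**Figure D1:**
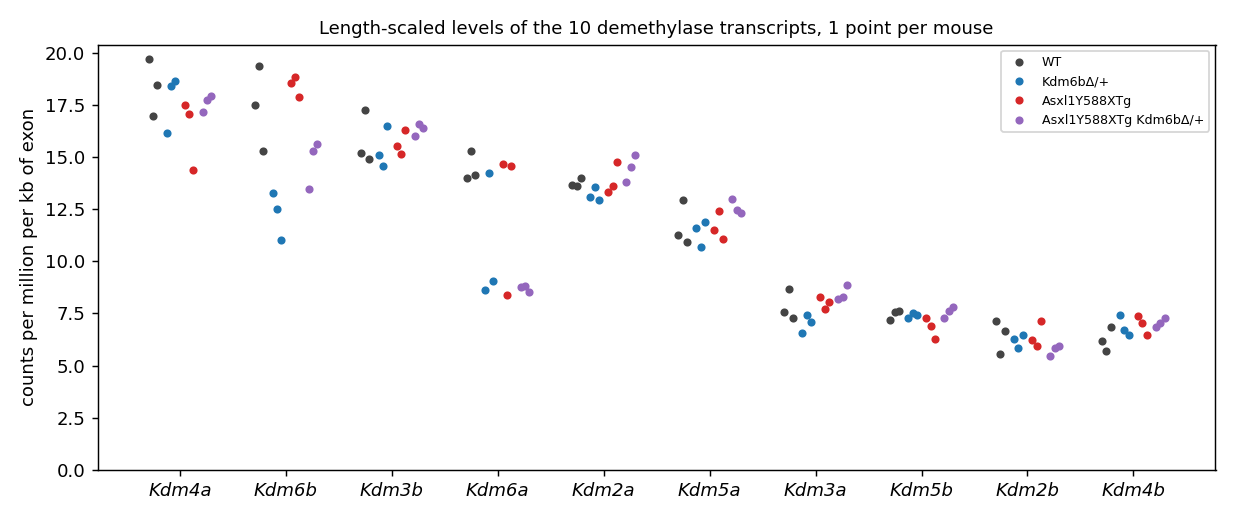
Levels of the 10 demethylase transcripts, in CPM per kb of exon on a linear axis, with 1 point per mouse coloured by genotype and the genes ordered by their mean in WT. Kdm6b is lower in mice with the deletion (11.01 to 15.6) than in most mice without it (15.3 to 19.4), and Kdm6a falls into a lower set of points at 8.37 to 9.05 and a higher set at 13.98 to 15.3.

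Kdm6b, the target of the deletion, was lower in both deletion genotypes, at 0.704 and 0.812 of their control levels. In units of normalized counts (counts scaled by TMM to the mean library size), Kdm6b was at 2145, 2375, and 1871 in the WT mice and at 1625, 1531, and 1347 in the Kdm6bΔ/+ mice. Every Kdm6bΔ/+ library was below every WT library. The ratio of Kdm6bΔ/+ to WT was 0.704 (95% interval 0.601 to 0.826), a log2 fold change of -0.51 (SE 0.11), with adjusted p = 0.279 by edgeR's quasi-likelihood test over all 15825 genes. Of these genes 0.152% had a lower p in that comparison. In the Asxl1Y588XTg mice Kdm6b was at 2274, 2306, and 2190, and in the Asxl1Y588XTg Kdm6bΔ/+ mice it was at 1651, 1875, and 1912. Again the groups did not overlap. The ratio on this background was 0.812 (0.725 to 0.910), a log2 fold change of -0.30 (SE 0.07; adjusted p = 0.0717, edgeR). DESeq2 on the same libraries gave adjusted p = 0.0191 and 0.0261 for these comparisons, with log2 fold changes of -0.50 and -0.29. Both intervals of the ratio lay above 0.5, the value for a transcript output of 1 of 2 equal alleles. Whether the remaining exons of the deleted allele add to the gene's count was not tested, and in RNA from a mixture of cells, fewer cells that express a gene cannot be told apart from less RNA per cell.

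Over both backgrounds, in a fit of all 12 libraries with a term for the transgene, the ratio of Kdm6b was 0.752 (0.681 to 0.832; log2 fold change -0.41, SE 0.07, adjusted p = 0.0129, edgeR). Kdm6b was past the threshold of 0.05 on the adjusted p there, and only 0.126% of the genes tested had a lower p. It was not past the fold of 1.5 that, with the adjusted p, defines a call here. An exact permutation of the deletion label within each background gave p = 0.005 (two-sided, 400 arrangements), the smallest value this design allows. The deletion effect differed between the backgrounds by 0.19 on the log2 scale (SE 0.13, 95% interval -0.09 to 0.47; adjusted p = 0.817, edgeR interaction). With a term for Y-linked transcripts the estimate of the deletion effect was the same, -0.41 (SE 0.10), but the adjusted p rose to 0.374. Within libraries that lacked Y-linked transcripts, the single Kdm6bΔ/+ library (1531) was below the 3 WT (1871 to 2375) and 2 Asxl1Y588XTg libraries (2274 and 2190). Within those that had them, the 5 libraries with the deletion (1347 to 1912) were below the single Asxl1Y588XTg library (2306). Each of these comparisons rests on a single library in 1 arm and mixes the backgrounds, so it was not tested.

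The transgene alone left Kdm6b close to WT. The means were 2256 ± 59.8 in Asxl1Y588XTg and 2130 ± 252 in WT mice (SD, n = 3 each), and the groups overlapped (log2 fold change 0.08, SE 0.09, 95% interval -0.13 to 0.29; adjusted p = 0.892, edgeR). Between the genotypes with the deletion, Kdm6b was higher in every Asxl1Y588XTg Kdm6bΔ/+ library (1813 ± 141) than in every Kdm6bΔ/+ library (1501 ± 141), with a log2 fold change of 0.27 (SE 0.09; adjusted p = 0.263, edgeR). Against WT, Asxl1Y588XTg Kdm6bΔ/+ mice overlapped, since 1875 and 1912 lay above the lowest WT value of 1871 (log2 fold change -0.22, SE 0.10; adjusted p = 0.737, edgeR). The mean of Kdm6b in mice with both changes thus lay between those of WT and Kdm6bΔ/+ mice.

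**Figure D2:**
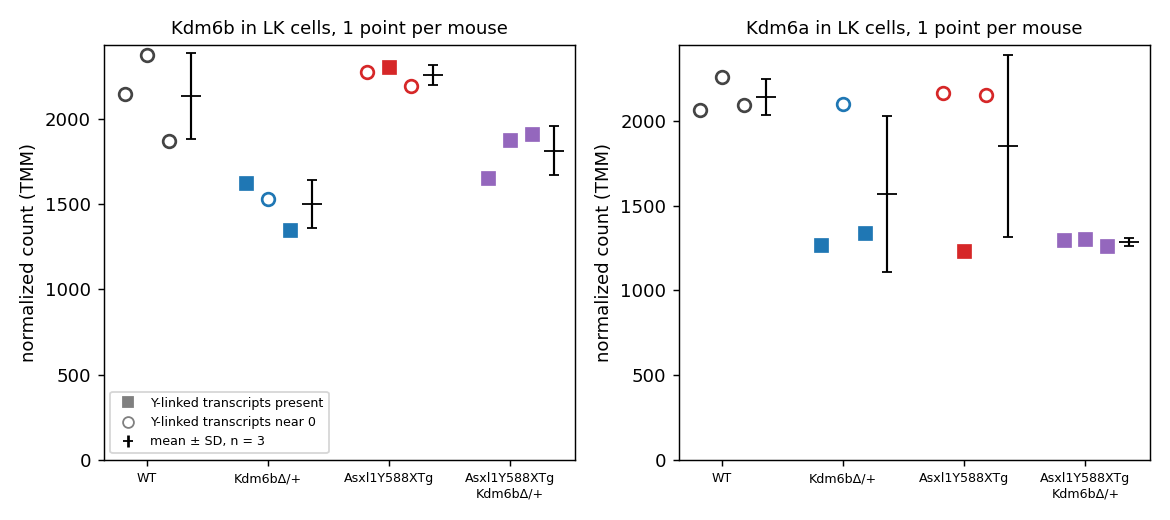
Normalized counts (TMM, linear axis from 0) of Kdm6b and Kdm6a in each library by genotype. Filled squares are libraries with Y-linked transcripts, open circles are those without, and the bars at the side give the mean ± SD of 3 mice. Kdm6b follows the deletion, at 1347 to 1912 with it and 1871 to 2375 without it, whereas Kdm6a is at 1235 to 1336 in every square and at 2063 to 2259 in every circle.

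Kdm6bos is an antisense transcript of the Kdm6b locus (11:69401513-69402700) that shares 286 bases with Kdm6b exons. It was also low in mice with the deletion, except in Asxl1Y588XTg Kdm6bΔ/+ replicate 1, but it rests on few reads. It had 17, 18, and 9 reads in the WT, 3, 4, and 4 in the Kdm6bΔ/+, 20, 22, and 14 in the Asxl1Y588XTg, and 23, 6, and 8 in the Asxl1Y588XTg Kdm6bΔ/+ libraries. The first 2 of these genotypes did not overlap, and the last 2 did. In normalized counts, Asxl1Y588XTg Kdm6bΔ/+ replicate 1 was at 17.0, against 9.64 to 22.2 in the libraries without the deletion. Over both backgrounds the log2 fold change was -1.27 (SE 0.39; adjusted p = 0.235, edgeR).

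Kdm6a, the other H3K27 demethylase, was not higher where Kdm6b was reduced. Its normalized counts were 2063, 2259, and 2091 in WT, and 1270, 2100, and 1336 in Kdm6bΔ/+ mice. They were 2166, 1235, and 2153 in Asxl1Y588XTg, and 1295, 1305, and 1260 in Asxl1Y588XTg Kdm6bΔ/+ mice. The values formed a high and a low set, and the low set was made up of exactly the 6 libraries with Y-linked transcripts. Without regard to these, Kdm6a was lower in Kdm6bΔ/+ than in WT by 0.44 on the log2 scale (SE 0.18; adjusted p = 0.9999, edgeR). Without Kdm6bΔ/+ replicate 2, the high one, this was -0.71 and a call (adjusted p = 0.014). The log2 fold change of Asxl1Y588XTg Kdm6bΔ/+ against Asxl1Y588XTg was -0.51 (SE 0.23; adjusted p = 0.384). Without Asxl1Y588XTg replicate 2, the low one, it was -0.73 and likewise a call (adjusted p = 0.00129). In the fit of the deletion over both backgrounds it was -0.48 (SE 0.15; adjusted p = 0.275). Asxl1Y588XTg Kdm6bΔ/+ against WT, which sets 3 libraries with Y-linked transcripts against 3 without, gave -0.72 (SE 0.08; adjusted p = 0.00269) and made Kdm6a the only one of the 10 members called in a comparison of 2 genotypes. With all 4 genotypes in the fit the estimate was -0.73, but the adjusted p was 0.406. In that pair the genotype and the Y-linked class cannot be told apart.

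With a term for Y-linked transcripts in the fit of all 12 libraries, the log2 fold change of Kdm6a with the deletion was 0.02 (SE 0.07, 95% interval -0.13 to 0.16; adjusted p = 0.9999, edgeR). The corresponding value was 0.01 (SE 0.08) against WT, 0.02 (SE 0.09) on the Asxl1Y588XTg background, and 0.02 (SE 0.10) for Asxl1Y588XTg Kdm6bΔ/+ against WT. Only Kdm6bΔ/+ and Asxl1Y588XTg had libraries of both classes. The values for pairs of genotypes thus rest on the difference between classes within those genotypes, taken as the same in the others. The libraries of Asxl1Y588XTg Kdm6bΔ/+ and WT alone cannot separate genotype from class. The coefficient of that term, a comparison added after the data were seen, was -0.75 (SE 0.07; adjusted p = 0.000174) for Kdm6a, a ratio of 0.596 (0.534 to 0.665) between libraries with and without Y-linked transcripts. It called 1 of the 10 members, Kdm6a, against 0.0379% of all genes tested. At an unadjusted p under 0.05 it again took in 1 member (2.41% of all genes), and 1 member did not overlap between the 2 classes (0.449%). The genes tested include the Y-linked transcripts that define the classes, so these shares are not independent of the classes. For Kdm6b the term was 0.00209 (SE 0.10).

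Kdm5c, an X-linked H3K4 demethylase gene with a Y-linked homolog that is no member of the list, showed the same order. It was at 3867 to 4679 normalized counts in libraries without and at 2851 to 3432 in libraries with Y-linked transcripts. Its Y-linked homolog Kdm5d was at 3.97 or less in the first class and at 466 to 594 in the second. Uty, the homolog of Kdm6a, had 1 read in each library of the first class and was at 520 to 680 normalized counts in the second. Phf8, a further X-linked JmjC gene that was named after its values were seen, did not show this order, with 1172 to 1410 normalized counts in the first class and 1274 to 1445 in the second. In the fit of the deletion over both backgrounds the log2 fold change of Kdm5c was -0.33 (SE 0.09; adjusted p = 0.200, edgeR). Asxl1Y588XTg Kdm6bΔ/+ against WT called Uty, Kdm5d, Ddx3y, and Eif2s3y as higher and Xist as lower. The 4 Y-linked transcripts among these define the 2 classes of library.

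**Figure D3:**
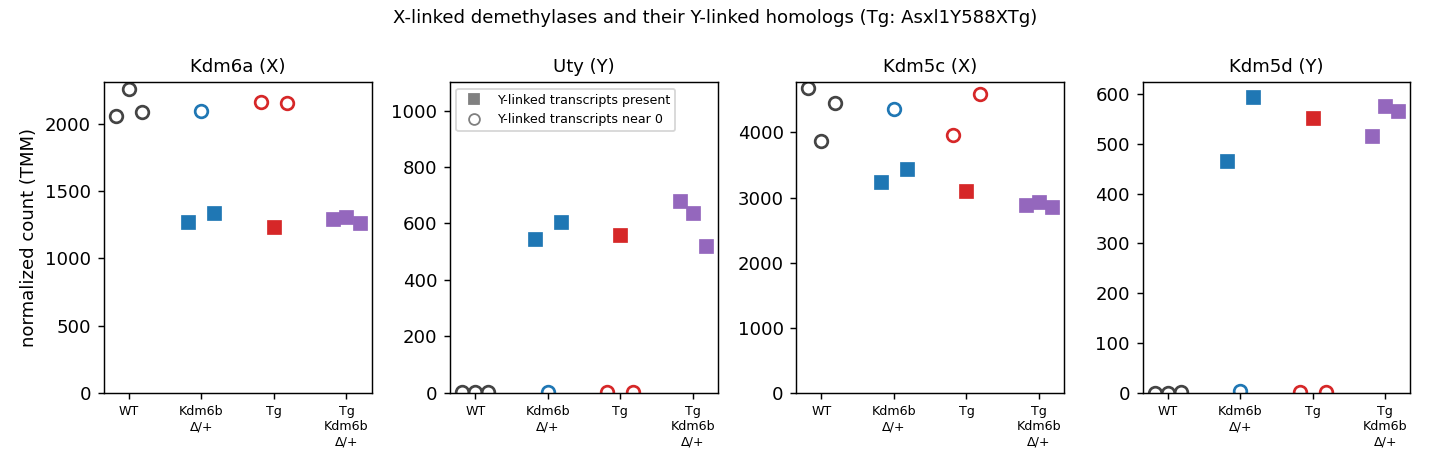
Normalized counts (TMM, linear axes from 0, each panel with its own range) of the X-linked demethylase genes Kdm6a and Kdm5c and their Y-linked homologs Uty and Kdm5d, with 1 point per library. Squares, libraries with Y-linked transcripts, are low for Kdm6a (1235 to 1336) and Kdm5c (2851 to 3432), and circles are high (2063 to 2259 and 3867 to 4679), in each genotype that holds both.

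The summed level of Kdm6a and Kdm6b was 31.9 ± 2.65 CPM per kb in WT, 22.9 ± 3.45 in Kdm6bΔ/+, 31.0 ± 3.29 in Asxl1Y588XTg, and 23.5 ± 1.10 in Asxl1Y588XTg Kdm6bΔ/+ mice (SD, n = 3 each). The share of Kdm6b in this sum was 54.5% ± 2.23, 54.1% ± 6.98, 60.1% ± 7.97, and 62.9% ± 2.09 in the same order. Both quantities contain the difference in Kdm6a between the classes of library. Without Y-linked transcripts, the share was 51.9% to 55.9% in the 3 WT mice, 55.9% and 55.1% in 2 Asxl1Y588XTg mice, and 46.8% in the single Kdm6bΔ/+ mouse. With them, it was 69.2% in the single Asxl1Y588XTg mouse and between 54.9% and 64.7% in the 5 mice with the deletion. In each class the mice with the deletion had the lower share, but 1 arm of each class is a single mouse and this was not tested.

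The 8 remaining members stayed close to their control levels under the deletion. In Kdm6bΔ/+ against WT their log2 fold changes ranged from -0.16 to 0.14, and on the Asxl1Y588XTg background from -0.15 to 0.16. In the fit over both backgrounds, the range was -0.11 (Kdm2b) to 0.08 (Kdm4b), and the 95% intervals of these 8 genes reached no further than 0.258 from 0 on the log2 scale. Changes past 1.5-fold, 0.585 on that scale, lay outside these intervals.

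**Figure D4:**
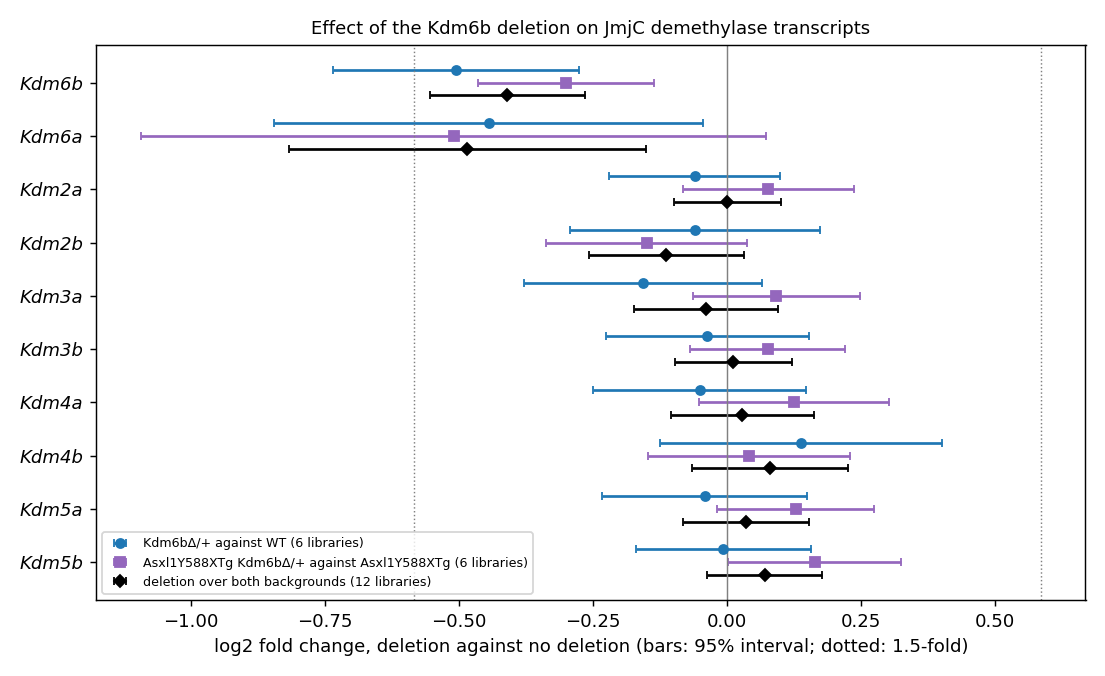
Log2 fold changes with 95% intervals (edgeR) of the 10 members with the Kdm6b deletion against without it, on the WT background (circles), the Asxl1Y588XTg background (squares), and over both (diamonds), with dotted lines at 1.5-fold. Kdm6b is below 0 with every interval, Kdm6a has the widest intervals, and the 8 other members lie between -0.16 and 0.16.

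Kdm2a and Kdm2b remove mono- and dimethylation from lysine 36 of histone H3, and KDM2B also brings a Polycomb complex of the PRC1 type to CpG islands. Kdm2a was at 3471, 3460, and 3567 in WT and at 3327, 3452, and 3288 in Kdm6bΔ/+ mice. The groups just failed to overlap, with a difference of -0.06 on the log2 scale (SE 0.07). Kdm2a was at 3386 to 3752 in Asxl1Y588XTg and at 3515 to 3846 in Asxl1Y588XTg Kdm6bΔ/+ mice (log2 fold change 0.08, SE 0.07), and over both backgrounds the log2 fold change was 0.000137 (SE 0.05). Kdm2b had the lowest value of the 8 over both backgrounds, -0.11 (SE 0.07, 95% interval -0.26 to 0.03; adjusted p = 0.651, edgeR). Its normalized counts were 1059 to 1365 in WT, 1116 to 1235 in Kdm6bΔ/+, 1135 to 1369 in Asxl1Y588XTg, and 1045 to 1137 in Asxl1Y588XTg Kdm6bΔ/+ mice.

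Kdm3a and Kdm3b remove mono- and dimethylation from lysine 9 of histone H3. Kdm3a was at 1095, 1258, and 1054 in WT and at 953, 1075, and 1027 in Kdm6bΔ/+ mice (log2 fold change -0.16, SE 0.10). It was at 1200, 1116, and 1166 in Asxl1Y588XTg and at 1187, 1199, and 1285 in Asxl1Y588XTg Kdm6bΔ/+ mice (0.09, SE 0.07). The groups overlapped in both comparisons. The difference between the backgrounds was 0.23 (SE 0.12; adjusted p = 0.749, edgeR interaction), the largest of the 10 members. Kdm3b, whose count may include reads of the overlapping Gm26538, had a log2 fold change of 0.01 (SE 0.05) over both backgrounds.

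Kdm4a and Kdm4b remove di- and trimethylation from lysines 9 and 36 of histone H3. Over both backgrounds their log2 fold changes were 0.03 (SE 0.06) and 0.08 (SE 0.07). Kdm4b had the highest value of the 10 members in Kdm6bΔ/+ against WT, 0.14 (SE 0.12; adjusted p = 0.9999, edgeR), and its groups overlapped, with 490 to 591 normalized counts in WT and 555 to 641 in Kdm6bΔ/+ mice. Kdm4a had the lowest value of the 8 with the transgene alone, -0.17 (SE 0.10; adjusted p = 0.673, edgeR).

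Kdm5a and Kdm5b remove di- and trimethylation from lysine 4 of histone H3, a mark of active promoters. Kdm5b was at 2124, 2016, and 1835 in Asxl1Y588XTg and at 2128, 2216, and 2272 in Asxl1Y588XTg Kdm6bΔ/+ mice. The groups did not overlap, and the log2 fold change was 0.16 (SE 0.07; adjusted p = 0.315, edgeR). In WT mice Kdm5b was at 2094 to 2226 and in Kdm6bΔ/+ mice at 2128 to 2198, with a log2 fold change of -0.01 (SE 0.08). For Kdm5a the log2 fold change with the deletion was 0.13 on the Asxl1Y588XTg background (SE 0.07, adjusted p = 0.398, edgeR), with overlapping groups. On the WT background it was -0.04 (SE 0.09). With the term for Y-linked transcripts these values were 0.02 (SE 0.09) and -0.13 (SE 0.09).

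Counted over the 10 members, no gene was called in Kdm6bΔ/+ against WT by edgeR, against 0.0948% of all genes tested. DESeq2 on the same libraries also called none. At an unadjusted p under 0.05 there were 2 members, Kdm6b and Kdm6a, against 3.49% of all genes, and 2 members, Kdm6b and Kdm2a, did not overlap between the groups, against 8.93%. In Asxl1Y588XTg Kdm6bΔ/+ against Asxl1Y588XTg, edgeR and DESeq2 called none of the 10 (all genes by edgeR, 1.74%). Here 2 members, Kdm6b and Kdm5b, were at an unadjusted p under 0.05 (15.4% of all genes), and the same 2 did not overlap (21.2%). Over both backgrounds edgeR and DESeq2 called none (0.348%), 2 were at an unadjusted p under 0.05, Kdm6b and Kdm6a (9.81%), and none kept the 6 libraries with the deletion apart from the 6 without (0.455%). The median log2 fold change of the 10 members over both backgrounds was 0.00589, and that of all genes was -0.01.

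With the transgene alone, Asxl1Y588XTg against WT, neither edgeR nor DESeq2 called a member (1.61% of all genes by edgeR). None was at an unadjusted p under 0.05 (9.35%), and none was free of overlap (15.7%). Between the genotypes with the deletion, Asxl1Y588XTg Kdm6bΔ/+ against Kdm6bΔ/+, again neither tool called a member (0.0948%). There, Kdm6b and Kdm3a, 2 members, were at an unadjusted p under 0.05 (12.2%), and 4 members did not overlap, all of them higher with the transgene (18.9%). These were Kdm6b, Kdm3a (log2 fold change 0.27, SE 0.08; adjusted p = 0.231, edgeR), Kdm5a (0.15, SE 0.07), and Kdm2a (0.14, SE 0.07). In Asxl1Y588XTg Kdm6bΔ/+ against WT, 1 member was called, Kdm6a (0.215% of all genes), and it was also the only member at an unadjusted p under 0.05 (6.79%). Kdm6a and Kdm4b, 2 members, did not overlap there (13.5%). For the difference of the deletion effect between the backgrounds, no member was called by edgeR or DESeq2 (0.0126%), and none was at an unadjusted p under 0.05 (6.87%). These comparisons share libraries, so their counts are not independent of each other.

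The rest of the family gave a similar picture. Of 23 other JmjC and LSD demethylase genes and relatives, all 23 were tested. In Kdm6bΔ/+ against WT edgeR called none of them (0.0948% of all genes). There, 2 were at an unadjusted p under 0.05 (3.49% of all genes), and DESeq2 called the same 2, Uty and Kdm5d, as higher. On the Asxl1Y588XTg background and over both backgrounds neither tool called any (1.74% and 0.348% of all genes by edgeR). In each, Kdm5c alone was at an unadjusted p under 0.05 (15.4% and 9.81% of all genes). Their median log2 fold change over both backgrounds was 0.03. Asxl1Y588XTg Kdm6bΔ/+ against WT called 2 of them as higher, Uty and Kdm5d (0.215% of all genes by edgeR). Both are among the Y-linked transcripts that define the classes of library, which in that pair cannot be told apart from genotype. A list of 20 genes of histone methyltransferases that write the same marks, or of their complexes, included the PRC2 subunit genes Ezh2, Suz12, and Eed. None of the 20 was called by edgeR or DESeq2 in any of the 7 comparisons (0.0126% to 1.74% of all genes by edgeR). Between 0 and 8 were at an unadjusted p under 0.05 (3.49% to 15.4% of all genes). The 8 were in Asxl1Y588XTg Kdm6bΔ/+ against Kdm6bΔ/+, where 12.2% of all genes were. Over both backgrounds none of the 20 was at an unadjusted p under 0.05 (9.81% of all genes), with log2 fold changes from -0.10 to 0.15.

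The genes most like Kdm6b over the 12 libraries, by Pearson's r of log2 CPM among 11063 other genes whose counts averaged 50 or more, were Bmpr1a (r = 0.918), Ubb (0.912), Kif3c (0.906), Sik1 (0.898), and Pgr (0.898). The points share the genotypes and the scaling, and genes were ranked on the same values, so these are descriptions. Bmpr1a, which encodes a receptor for bone morphogenetic proteins, was at 892 ± 114 normalized counts in WT, 517 ± 82.7 in Kdm6bΔ/+, 919 ± 37.4 in Asxl1Y588XTg, and 561 ± 88.5 in Asxl1Y588XTg Kdm6bΔ/+ mice (SD, n = 3 each). Pgr, the progesterone receptor gene, was at 89.2 ± 48.9, 21.4 ± 4.43, 120 ± 37.7, and 47.5 ± 5.63 in the same order. In these genes, as in Kdm6b, both deletion genotypes had lower means than both genotypes without it. Among the members, the highest r with Kdm6b was that of Kdm3a (0.553, rank 577), that of Kdm6a was 0.412, and the lowest was that of Kdm5b (-0.349).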

How the data were processed

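The authors trimmed the reads with Trimmomatic, aligned them with STAR to mm10, counted them with HTSeq, and deposited raw counts per gene without normalization. The study's methods name a stranded ribosomal RNA depletion kit and the labels another kit. Counts were matched to genotypes by the labels, and 0 per-sample columns were left out. In R 4.3.3, edgeR 4.0.16 (filterByExpr, TMM, robust quasi-likelihood) fitted each pair of genotypes to its 6 libraries, and the deletion over both backgrounds and the interaction to all 12. P-values were adjusted over 15825 genes. A gene was called at an adjusted p under 0.05 and a fold above 1.5. For normalized counts, each count was scaled by the TMM-adjusted total of its library to the average total of the 12 libraries, and exon lengths come from GENCODE vM21. Libraries with over 10 summed Y-linked CPM, on unscaled library totals, were classed as having Y-linked transcripts. The test of that class itself was added after the data were seen. Alternatives were DESeq2 1.42.0, RLE scaling, other filters and fits, a replicate block, a term for Y-linked transcripts, and leaving out libraries. The fits were tested on simulated counts. Replicates differed by more than counting noise (chi-square per gene from 7.40 to 30.8). Precision is limited by 3 mice a group.

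The members, the gene lists, and the tests were chosen with earlier results of these data known. The text names all members, listed genes that were called or at an unadjusted p under 0.05 over both backgrounds, Uty, Kdm5c, Kdm5d, Xist, Ddx3y, genes that overlap member exons, and the 5 genes most like Kdm6b. Replicate numbers showed no sign of pairing the libraries. Of the marker lists, 1 is not reported here.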

Additional observations from a re-analysis of the deposited data

How the results depend on the processing

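Kdm6b kept its direction in every alternative of the comparisons with the deletion, with log2 fold changes from -0.58 to -0.42 in Kdm6bΔ/+ against WT, -0.34 to -0.23 on the Asxl1Y588XTg background, and -0.44 to -0.36 over both. Its adjusted p did not keep its side of 0.05. In Kdm6bΔ/+ against WT it was 0.0191 by DESeq2, 0.0005 by edgeR without an expression filter, and 0.0939 by edgeR with all 4 genotypes. With the Y-linked term it was 0.740 by edgeR there and 0.457 on the Asxl1Y588XTg background. The highest value over the edgeR and DESeq2 alternatives of Kdm6bΔ/+ against WT was 0.9999. Kdm6b in Asxl1Y588XTg against WT ranged from -0.0022 to 0.17 with libraries left out. With the Y-linked term, Kdm6a turned from below 0 to 0.01 in Kdm6bΔ/+ against WT, 0.02 in Asxl1Y588XTg Kdm6bΔ/+ against Asxl1Y588XTg, against WT, and over both backgrounds, 0.0017 against Kdm6bΔ/+, and 0.01 for the interaction. Under that term 0 members and 3 of all genes tested were called in Asxl1Y588XTg Kdm6bΔ/+ against WT. By edgeR with all 4 genotypes 0 members were called as well, and the share of all genes is not given here.

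With libraries left out, 0 to 1 members were called in Kdm6bΔ/+ against WT and in Asxl1Y588XTg Kdm6bΔ/+ against Asxl1Y588XTg. The 1 was Kdm6a, at -0.71 without Kdm6bΔ/+ replicate 2 and -0.73 without Asxl1Y588XTg replicate 2, each the library of its group that differs from the other 2 in Y-linked transcripts. With no library left out, 0.0948% and 1.74% of all genes were called in these comparisons. The shares with a library left out are not given here, so the counts of members cannot be set against them. Kdm6a then ranged from -0.34 to 0.02 in Asxl1Y588XTg against WT and from -0.30 to 0.19 for the interaction. Members near 0 over both backgrounds changed sign: Kdm2a ranged from -0.02 to 0.02, Kdm3a from -0.07 to 0.01, Kdm3b from -0.0043 to 0.05, and Kdm4a from -0.01 to 0.07 with libraries left out. With the Y-linked term Kdm3a was at 0.03, Kdm3b at -0.0044, and Kdm5a at -0.05. The cause was not tested.

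Counts over all genes moved by more than 1.5 times under several settings. In Kdm6bΔ/+ against WT they ran from 6 with the Y-linked term to 52 without the filter (15 as reported), on the Asxl1Y588XTg background from 48 to 808 (275), and over both from 8 to 444 (55). In Asxl1Y588XTg against WT they ran from 101 with the replicate block to 640 by DESeq2 with all 4 genotypes (255), between the deletion genotypes from 2 to 207 (15), for Asxl1Y588XTg Kdm6bΔ/+ against WT from 3 to 180 (34), and for the interaction from 0 to 258 (2). The replicate block gave Kdm6b at -0.50, -0.30, and -0.41 in the comparisons with the deletion and changed no call of a member. Library deviations around their genotype average correlated with a median r of -0.04 in 18 same-numbered pairs and 0.0076 in 36 others, so the numbers did not pair the libraries.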

Other observations

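The 20 genes of histone methyltransferases and their complexes were compared between the genotypes with the deletion, Asxl1Y588XTg Kdm6bΔ/+ against Kdm6bΔ/+. At an unadjusted p under 0.05, 4 were higher with the transgene and 4 were lower, where 12.2% of all genes were at that level. None passed the adjusted threshold. Log2 fold changes of the 20 genes ranged from -0.37 (Suv39h2) to 0.32 (Kmt2a), and the lowest adjusted p was that of Kmt2a, 0.115 (edgeR). Both genes were named after their values were seen.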
